A study of Mus musculus with 18 samples.

Results

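The 10 genes described here encode enzymes that use tryptophan or the aromatic amines made from it: Ddc, Ido1, Ido2, Tdo2, Kmo, Kynu, Haao, Tph1, Maoa and Maob. They were picked by gene name from the 54232 genes of the count table, of which 32780 had at least 1 count in any mouse. The choice was made with earlier results of these data known, and it started from the difference in Ddc between the strains, so strain differences of the 10 genes are given as a description without p-values. RNA was sequenced from whole lacrimal glands (LGs) of 18 male mice: 6 groups of 3 mice, from either strain at the age of 2M, 4M or 6M (months). The strains were BALB/cJ (BALB/c) and NOD.B10Sn-H2b/J (NOD.H-2b), a model of primary Sjögren's syndrome. NOD.H-2b mice carry the H2b haplotype in place of the NOD MHC segment and were not treated with any agent. BALB/c mice served as controls but do not share the NOD background, so disease and strain background cannot be told apart. In bulk tissue, fewer cells of a type and less RNA per cell cannot be told apart either. The totals ranged from 49480781 to 103936830 counts per mouse. Levels are given as CPM, read counts scaled to a common, TMM-normalized library size.

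Tryptophan is consumed along several routes. In the kynurenine route, Ido1, Ido2 or Tdo2 open the indole ring, a formamidase releases kynurenine, and Kmo, Kynu and Haao carry it on towards quinolinic acid, from which NAD can be made. In the serotonin route, Tph1 hydroxylates tryptophan and Ddc, a vitamin B6-dependent decarboxylase, removes the carboxyl group, as it does from L-DOPA in dopamine synthesis. Maoa and Maob oxidize the resulting amines. In mice, Tdo2 is best known from liver, Tph1 from gut and mast cells, Ido1 as a gene induced by interferon gamma, and Kmo and Kynu from liver and myeloid cells.

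On GRCm38 with GENCODE M21, Ddc (ENSMUSG00000020182) lies at chr11:11814101-11898144 on the minus strand, Kmo (ENSMUSG00000039783) at chr1:175620381-175662116 on the plus strand, Kynu (ENSMUSG00000026866) at chr2:43555329-43682715 on the plus strand and Haao (ENSMUSG00000000673) at chr17:83831156-83847963 on the minus strand. Ido2 and Ido1 are neighbours, 7802 bases apart, and so are Maoa and Maob, 21463 bases apart. Ddc and Kmo each overlap another annotated gene but share no exonic base with it. Because Ddc, Kmo and Haao were all higher in NOD.H-2b LGs, the 250 bases before their annotated starts are shown, as given by RefSeq on GRCm38.p6 and read 5′ to 3′ on the strand of the gene. No start of Kynu was in the table used. The windows are chr11:11898145-11898394 and chr11:11890409-11890658 for the upstream and downstream starts of Ddc, chr1:175631943-175632192 for Kmo and chr17:83846791-83847040 for Haao. Those of Kmo, Haao and the downstream start of Ddc lie within the GENCODE bounds of their genes. The bases before the outermost GENCODE starts of Kmo and Haao were thus not searched. Capitals mark the letters GAGGAAGT, a core recognized by PU.1, a transcription factor of myeloid cells and B cells.
Ddc upstream start: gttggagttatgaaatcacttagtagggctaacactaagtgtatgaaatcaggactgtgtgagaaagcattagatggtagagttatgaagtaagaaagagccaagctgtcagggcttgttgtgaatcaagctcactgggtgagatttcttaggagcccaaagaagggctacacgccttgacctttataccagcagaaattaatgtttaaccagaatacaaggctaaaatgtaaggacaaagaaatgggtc
Ddc downstream start: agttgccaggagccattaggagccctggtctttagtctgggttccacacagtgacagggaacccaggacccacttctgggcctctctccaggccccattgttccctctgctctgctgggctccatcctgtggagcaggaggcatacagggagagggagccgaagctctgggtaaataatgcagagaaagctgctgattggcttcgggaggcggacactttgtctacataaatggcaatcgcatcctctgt
Kmo: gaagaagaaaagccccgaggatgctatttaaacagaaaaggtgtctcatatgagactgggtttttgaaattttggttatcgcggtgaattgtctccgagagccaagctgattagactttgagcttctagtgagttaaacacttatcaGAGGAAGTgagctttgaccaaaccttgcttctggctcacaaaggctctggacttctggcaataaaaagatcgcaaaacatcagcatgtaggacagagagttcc
Haao: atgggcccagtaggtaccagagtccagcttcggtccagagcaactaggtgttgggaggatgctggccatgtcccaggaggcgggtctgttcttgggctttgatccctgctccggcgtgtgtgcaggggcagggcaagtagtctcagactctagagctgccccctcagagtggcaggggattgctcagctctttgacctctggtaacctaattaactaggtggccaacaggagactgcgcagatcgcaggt

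Both strands of these windows were searched for 3 sets of letters: GAGGAAGT, then GAAA, any 2 bases and GAAA (an interferon-stimulated response element), and GGGA, any base and TTTCC (an NF-kB site). The only match among these was GAGGAAGT in the window of Kmo, with its first base 103 bases before the RefSeq start used, and so within the GENCODE bounds of the gene. Of 32851 promoters of the same length, 2.44% held GAGGAAGT, 2.98% the interferon-stimulated letters and 0.356% the NF-kB letters. The 8 promoters of 6 of the 10 genes were searched in all. A missing match says only that these letters are not in these windows.

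Ddc, Kmo, Kynu and Haao were higher in every NOD.H-2b mouse than in every BALB/c mouse at each age. The share of all genes whose groups do not overlap is not given here, so nothing is read from a lack of overlap as such. Tdo2 was lower in NOD.H-2b at 2M and 4M, Maoa and Maob differed little, and Ido1, Ido2 and Tph1 were at or near the limit of detection. The plot of CPM by mouse shows the 7 genes with enough counts to be tested.

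**Figure D1:**
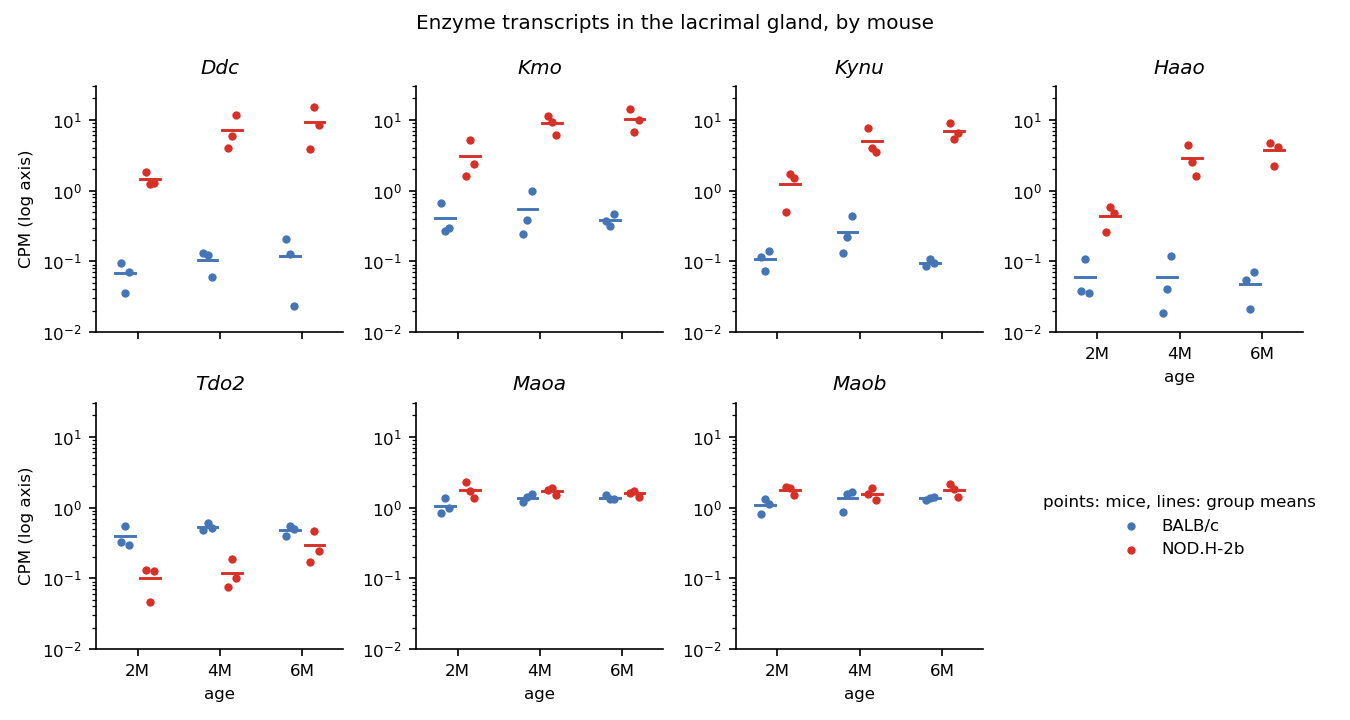
CPM (log axis) of 7 enzyme genes by age, with 1 point per mouse and a line at the mean of the 3 mice of a group. The NOD.H-2b points of Ddc, Kmo, Kynu and Haao lie above all BALB/c points of the same age, whereas those of Maoa and Maob overlap with BALB/c at 4M and 6M.

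Ddc, the decarboxylase of serotonin and dopamine synthesis, had 5, 2 and 4 counts in the BALB/c mice of 2M and 110, 80 and 82 counts in the NOD.H-2b mice of 2M (replicates 1, 2 and 3). At 4M it had 7, 6 and 4 counts in BALB/c and 263, 379 and 583 counts in NOD.H-2b. In mice of 6M the counts were 19, 6 and 1 in BALB/c and 294, 866 and 482 in NOD.H-2b. The highest BALB/c count of any age (19) was below the lowest NOD.H-2b count (80), and 2 of the 9 BALB/c mice were at or under 3 counts. The mean level at 2M was 1.44 ± 0.32 CPM in NOD.H-2b against 0.0673 ± 0.030 CPM in BALB/c (SD, n = 3 each), a 21.4-fold difference. At 4M the means were 7.17 ± 4.01 against 0.104 ± 0.038 CPM (69.3-fold), and at 6M 9.15 ± 5.69 against 0.118 ± 0.091 CPM (77.3-fold). The SD of the NOD.H-2b mice was thus more than 50% of their mean at 4M and 6M, with coefficients of variation of 55.9% and 62.2%. The fitted log2 fold changes (edgeR, NOD.H-2b minus BALB/c) were 4.42 ± 0.40, 6.13 ± 0.58 and 6.07 ± 0.80 at 2M, 4M and 6M (SE).

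Kmo, the monooxygenase that hydroxylates kynurenine, had 35, 15 and 17 counts in BALB/c and 97, 337 and 151 counts in NOD.H-2b at 2M. At 4M it had 13, 19 and 67 counts in BALB/c and 751, 598 and 308 counts in NOD.H-2b. By 6M, BALB/c mice had 35, 15 and 20 counts and NOD.H-2b mice 1099, 387 and 558. The groups did not overlap at any age, and BALB/c 4M replicate 3 was the highest BALB/c mouse. NOD.H-2b means exceeded BALB/c means 7.35-fold at 2M (3.03 ± 1.86 against 0.413 ± 0.222 CPM), 16.5-fold at 4M (8.92 ± 2.61 against 0.542 ± 0.403 CPM) and 26.6-fold at 6M (10.3 ± 3.8 against 0.388 ± 0.075 CPM).

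Kynu, the kynureninase, had 6, 4 and 8 counts in BALB/c and 30, 112 and 95 counts in NOD.H-2b at 2M. At 4M it had 7, 11 and 29 counts in BALB/c and 505, 262 and 175 counts in NOD.H-2b. At 6M it had 8, 5 and 4 counts in BALB/c and 689, 310 and 365 counts in NOD.H-2b. At 2M the lowest NOD.H-2b mouse, replicate 1, was well below the other two, and at 4M the highest BALB/c mouse was again replicate 3. In NOD.H-2b, the mean levels at 2M, 4M and 6M were 1.23 ± 0.65, 5.07 ± 2.25 and 6.94 ± 1.85 CPM (SD, n = 3 each). These were 11.3-fold, 19.4-fold and 72.8-fold higher than in BALB/c.

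Haao, the dioxygenase that forms the precursor of quinolinic acid, had 2, 6 and 2 counts in BALB/c and 16, 38 and 31 counts in NOD.H-2b at 2M. At 4M it had 1, 2 and 8 counts in BALB/c and 291, 164 and 81 counts in NOD.H-2b. At 6M it had 5, 1 and 3 counts in BALB/c and 363, 127 and 233 counts in NOD.H-2b. Haao was at or under 3 counts in 6 of the 9 BALB/c mice and in none of the NOD.H-2b mice. Its mean level in NOD.H-2b was 0.443 ± 0.162 CPM at 2M, 2.85 ± 1.42 CPM at 4M and 3.68 ± 1.31 CPM at 6M. The folds over BALB/c were 7.33, 48.0 and 76.1, which rest on few BALB/c counts.

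Of the dioxygenases that start the kynurenine route, Ido1 and Ido2 had very few counts. Tdo2 had more counts than Ddc, Kynu and Haao in BALB/c and far fewer in NOD.H-2b. These dioxygenases did not move together. Ido1 had at most 1 count in any BALB/c mouse and at most 2 counts in any NOD.H-2b mouse, so no fold can be given. Ido2 had at most 2 counts in BALB/c and none in the NOD.H-2b mice of 2M. In NOD.H-2b it had 3, 5 and 0 counts at 4M and 4, 10 and 7 counts at 6M, which was above all BALB/c mice of 6M (2, 1 and 0 counts). Tdo2, the main tryptophan dioxygenase of liver, had 17, 31 and 17 counts in BALB/c and 8, 3 and 8 counts in NOD.H-2b at 2M. At 4M it had 26, 30 and 35 counts in BALB/c and 5, 12 and 5 counts in NOD.H-2b. At 6M it had 37, 26 and 21 counts in BALB/c and 13, 27 and 14 counts in NOD.H-2b, where the groups overlapped. NOD.H-2b means were lower 3.90-fold at 2M, 4.46-fold at 4M and 1.62-fold at 6M. The summed level of 7 hepatocyte markers was 2.23 to 3.51 CPM over the BALB/c mice and 1.00 to 2.92 CPM over the NOD.H-2b mice. Of these markers, Alb had no count in any mouse, Ttr was called lower in NOD.H-2b at each age and Cyp2e1 at 6M, Fgb was called higher at 2M and Serpina1a at 4M. The part of these markers in the Tdo2 difference was not tested.

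Tph1, which makes the substrate of Ddc in the serotonin route, had at most 2 counts in every mouse of 2M and 4M. At 6M it had 7, 5 and 10 counts in BALB/c and 4, 2 and 2 counts in NOD.H-2b, so that all NOD.H-2b mice were below all BALB/c mice. The summed level of 8 mast cell markers was 8.00 to 14.1 CPM over these BALB/c mice against 3.79 to 5.15 CPM over the NOD.H-2b mice, and its part in the Tph1 counts was not tested. Th, the hydroxylase that makes L-DOPA, had no count in any of the 18 mice, which allows up to 3 counts per mouse, or 0.0322 to 0.0701 CPM. Ddc transcripts were thus measured in NOD.H-2b LGs in which those of Tph1 and Th were hardly or not detected. Intervals and limits of this kind cover counting error only.

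Maoa and Maob, the mitochondrial oxidases of serotonin and other amines, differed least between the strains. Maoa had 44, 76 and 56 counts in BALB/c and 138, 112 and 87 counts in NOD.H-2b at 2M, and Maob 43, 73 and 64 counts in BALB/c and 119, 124 and 96 counts in NOD.H-2b. The groups did not overlap at 2M but overlapped at 4M and 6M. The gap at 2M was narrow: the lowest NOD.H-2b CPM was 1.0025 times the highest BALB/c CPM for Maoa and 1.15 times for Maob. The fitted log2 fold changes at 2M, 4M and 6M were 0.78 ± 0.26, 0.32 ± 0.22 and 0.24 ± 0.20 for Maoa, and 0.75 ± 0.24, 0.22 ± 0.29 and 0.44 ± 0.22 for Maob (SE). Across the 18 mice these neighbouring genes also had the closest profiles of the enzymes compared. Their root mean square difference was 0.18 in log2 CPM after each gene was centred on its mean. This measure is small for any pair of genes that vary little, so it does not show that they move together.

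**Figure D2:**
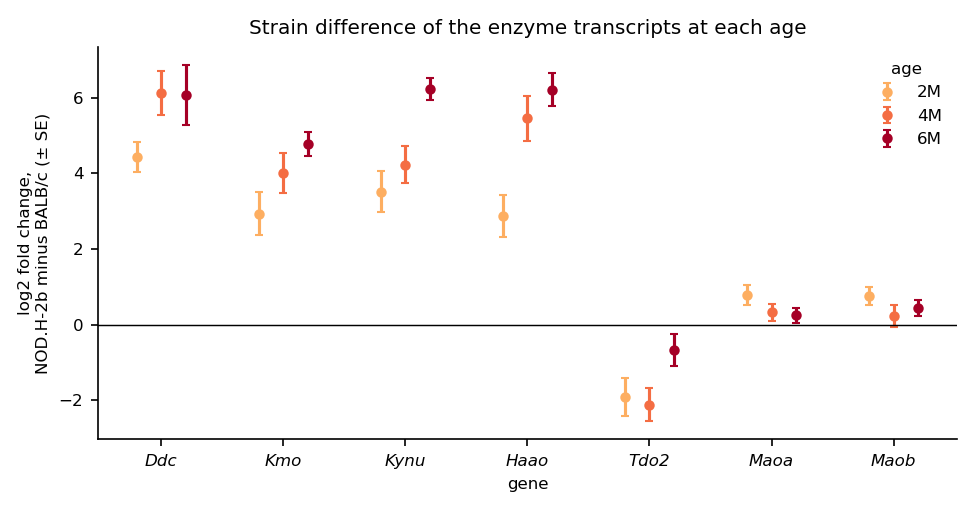
Log2 fold change between the strains (NOD.H-2b minus BALB/c) of 7 enzyme genes at 2M, 4M and 6M, with bars of ± 1 SE from edgeR fits of 6 mice per age. Ddc, Kmo, Kynu and Haao lie between 2.87 and 6.22, Tdo2 below 0, and Maoa and Maob between 0.22 and 0.78.

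A gene was called a DEG when its adjusted p was under 0.05 and it differed at least 2-fold. Of the 10 genes, 7 had enough counts to be tested between the strains and Ido1, Ido2 and Tph1 did not. With NOD.H-2b set against BALB/c, 4 of these 7 were called higher and 1 lower at 2M, 4 and 1 at 4M, and 4 and 0 at 6M. Of all genes tested, 15.8%, 20.3% and 24.8% were called in either direction at 2M, 4M and 6M. The genes called higher were Ddc, Kmo, Kynu and Haao at each age, and Tdo2 was called lower at 2M and 4M. Nothing is read from these counts, since the strain difference was behind the choice of the genes. The fitted log2 fold changes of Kmo were 2.93 ± 0.57, 4.00 ± 0.52 and 4.77 ± 0.32 at 2M, 4M and 6M (SE). Those of Kynu were 3.52 ± 0.53, 4.23 ± 0.48 and 6.22 ± 0.29, those of Haao 2.87 ± 0.56, 5.45 ± 0.59 and 6.21 ± 0.44, and those of Tdo2 -1.91 ± 0.51, -2.12 ± 0.44 and -0.67 ± 0.43. Single mice set part of these sizes. Without BALB/c 4M replicate 3 the log2 differences were 4.84 for Kmo, 4.84 for Kynu and 6.52 for Haao. Without BALB/c 2M replicate 2, that of Haao at 2M was 3.56, without NOD.H-2b 2M replicate 2 that of Kmo at 2M was 2.30, and without BALB/c 6M replicate 1 that of Ddc at 6M was 6.87.

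Compared per kilobase of exon, the genes changed places between the strains. In BALB/c at 6M, Maob had the highest level of the 10 genes (0.486 ± 0.023 CPM per kb, SD, n = 3), followed by Maoa (0.329 ± 0.023), Tdo2 (0.124 ± 0.020) and Kmo (0.0821 ± 0.0158). Ddc (0.0265 ± 0.0203), Tph1 (0.0224 ± 0.0136), Kynu (0.0155 ± 0.0017) and Haao (0.0103 ± 0.0053) were below these, with spreads that overlapped. In NOD.H-2b at 6M the order was Kmo (2.18 ± 0.81 CPM per kb), Ddc (2.05 ± 1.28), Kynu (1.13 ± 0.30), Haao (0.787 ± 0.279), Maob (0.639 ± 0.133), Maoa (0.382 ± 0.038) and Tdo2 (0.0763 ± 0.0406). Kmo and Ddc did not differ beyond their spread, nor did Ddc and Kynu, Kynu and Haao or Haao and Maob. Ido2 (0.0321 ± 0.0169), Ido1 (0.0144 ± 0.0048) and Tph1 (0.00661 ± 0.00161) came last.

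Summed levels of B cell, T cell, dendritic cell and macrophage markers were higher in the NOD.H-2b mice of each age, and they were not tested between ages. The summed level of 8 B cell markers was 0.123 to 2.36 CPM over the BALB/c mice, and 1.54 to 32.3, 162 to 357 and 243 to 489 CPM over the NOD.H-2b mice of 2M, 4M and 6M. The summed level of 8 T cell markers was 0.335 to 6.07 CPM over BALB/c and 9.14 to 124 CPM over NOD.H-2b, and that of 10 dendritic cell markers 5.17 to 15.7 CPM and 22.6 to 92.8 CPM. For 10 macrophage markers it was 52.7 to 118 CPM over BALB/c and 170 to 267 CPM over NOD.H-2b. Of these 10, 7, 6 and 7 were called higher at 2M, 4M and 6M, and Cd163 was called lower at 6M. No marker of these lists was at 0 in all mice of a group. BALB/c 4M replicate 3, the BALB/c mouse highest in Kmo, Kynu and Haao, was also the highest BALB/c mouse in the B cell, T cell and dendritic cell sums, at 2.36, 6.07 and 15.7 CPM. Acinar cell markers, which define the gland's secretory tissue, were abundant in every mouse and summed to 89807 CPM or more in BALB/c and to between 53445 and 82757 CPM in NOD.H-2b. Such a sum is set by its most abundant genes. Of the 7 acinar markers tested, Scgb2a2 was called lower at each age and Mucl2 at 6M, and Pigr was called higher at 2M. Their median log2 difference was -0.17, -0.41 and -0.55 at 2M, 4M and 6M. The part of these cell types in the strain differences of the enzymes was not tested.

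Whether the enzymes changed with age was tested within each strain. The choice started from the strain difference in Ddc, which came from the same mice, and earlier results were known. The p-values of the age tests, and of the strain by age test below, are thus not independent of the choice. In BALB/c, 4 of the 10 genes (Kmo, Tdo2, Maoa and Maob) had enough counts, and none of them was called by edgeR or by DESeq2 between 2M and 4M, 4M and 6M or 2M and 6M. None had an unadjusted p under 0.05 in edgeR either. Over all genes, 2.37%, 0.0361% and 1.68% were called in these 3 contrasts. The log2 change of Kmo from 2M to 6M in BALB/c was -0.10 ± 0.43 (SE), and that of Maoa 0.36 ± 0.24.

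In NOD.H-2b, Ddc and Haao rose from 2M to 4M and Ddc, Kynu and Haao from 2M to 6M. From 2M to 4M, 2 of the 6 genes tested were called higher and none lower, against 6.6% of all genes called in either direction and 5.97% called higher. Ddc rose by 2.31 ± 0.43 on the log2 scale (SE, edgeR adjusted p = 0.022) and Haao by 2.68 ± 0.44 (edgeR adjusted p = 0.011), with all mice of 4M above all mice of 2M for both. The change was 2.04 ± 0.53 for Kynu (edgeR adjusted p = 0.052) and 1.55 ± 0.49 for Kmo (edgeR adjusted p = 0.094), which missed the threshold. DESeq2 called all 4 of these genes. Maoa and Maob had log2 changes of -0.05 ± 0.23 and -0.18 ± 0.22. These calls depended on single mice of 2M. The adjusted p of Ddc was 0.062 without NOD.H-2b 2M replicate 2 and 0.11 without replicate 3, and that of Haao 0.063 without replicate 3. Conversely, that of Kynu was 0.044 without NOD.H-2b 2M replicate 1 and that of Kmo 0.012 without replicate 2.

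From 2M to 6M in NOD.H-2b, 3 of the 7 genes tested were called higher and none lower, against 12.5% of all genes called in either direction and 10.9% called higher. Haao rose by 3.03 ± 0.37 (edgeR adjusted p = 0.0011), Ddc by 2.65 ± 0.58 (edgeR adjusted p = 0.021) and Kynu by 2.47 ± 0.46 (edgeR adjusted p = 0.010) on the log2 scale. The change was 1.74 ± 0.54 for Kmo (edgeR adjusted p = 0.057) and 1.51 ± 0.57 for Tdo2 (edgeR adjusted p = 0.062). Those of Maoa and Maob were -0.17 ± 0.22 and -0.01 ± 0.21. DESeq2 called 4 genes. The adjusted p of Ddc was 0.058, 0.076 and 0.079 without NOD.H-2b 2M replicates 1, 2 and 3 and 0.051 without NOD.H-2b 6M replicate 3, and that of Kmo was 0.0087 without NOD.H-2b 2M replicate 2. From 4M to 6M, none of the 7 genes tested was called by edgeR or by DESeq2, 1 gene (Tdo2) had an unadjusted p under 0.05, and 0.00555% of all genes were called. The labels do not say whether the mice of a group came from separate litters, so the p-values measure only the spread between these mice.

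The difference between the age changes of the strains was tested in 1 edgeR fit of all 18 mice. The strain difference of Haao grew by 3.34 ± 1.01 on the log2 scale from 2M to 6M (SE, edgeR adjusted p = 0.033), and Haao was the 1 gene called among the 7 tested, against 5.11% of all genes called in either direction and 3.6% called higher. This value rests on 1 to 8 counts in the BALB/c mice: Haao had too few counts to be tested for age in BALB/c alone, passed the filter on low counts through the NOD.H-2b mice, and is not tested when at least 10 counts are asked of every mouse. For Kynu the difference grew by 2.71 ± 0.91 (edgeR adjusted p = 0.053), for Kmo by 1.85 ± 0.83 (edgeR adjusted p = 0.15) and for Ddc by 1.66 ± 1.27 (edgeR adjusted p = 0.40), none of which passed. The rise of Ddc with age in NOD.H-2b was thus not shown to differ from its change in BALB/c, where its levels rest on 1 to 19 counts. The call of Haao was lost when any of 5 mice was left out. Its adjusted p was 0.21 without BALB/c 2M replicate 2, 0.062 without NOD.H-2b 2M replicate 1, 0.065 without either BALB/c 6M replicate 1 or 2 and 0.063 without NOD.H-2b 6M replicate 1. Kynu passed without any of 6 other mice, with an adjusted p of 0.038 without NOD.H-2b 2M replicate 2, 0.04996 and 0.044 without BALB/c 4M replicates 1 and 3, 0.028 and 0.048 without NOD.H-2b 4M replicates 1 and 3 and 0.043 without NOD.H-2b 6M replicate 2. These Kynu values rest on 4 to 29 counts in the BALB/c mice. Like Haao, Kynu had too few counts to be tested for age in BALB/c alone and passed the filter through the NOD.H-2b mice. Kmo passed without NOD.H-2b 2M replicate 2, at 0.041.

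Among NOD.H-2b mice of the same age, the order of the 3 mice by Kmo, Kynu or Haao CPM was the reverse of their order by Ddc CPM at each age. Ddc was highest in replicate 1 of 2M, replicate 3 of 4M and replicate 2 of 6M, and these were the mice with the lowest Kmo, Kynu and Haao. This order was noticed in the values themselves, so the correlations that follow restate it as a description and are given without p-values. With log2 CPM centred on the mean of each age, Pearson's r over the 9 NOD.H-2b mice was -0.77 between Ddc and Kmo (Spearman's rho -0.88), -0.70 between Ddc and Kynu (rho -0.77) and -0.90 between Ddc and Haao (rho -0.90). Between the kynurenine enzymes, r was 0.84 for Kmo and Kynu (rho 0.80), 0.85 for Kmo and Haao (rho 0.82) and 0.87 for Kynu and Haao (rho 0.87). Without the 2 mice farthest from the median of the first gene, r was -0.67, -0.71 and -0.77 for Ddc with Kmo, Kynu and Haao, and 0.74, 0.90 and 0.85 for the other pairs in the order given.

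**Figure D3:**
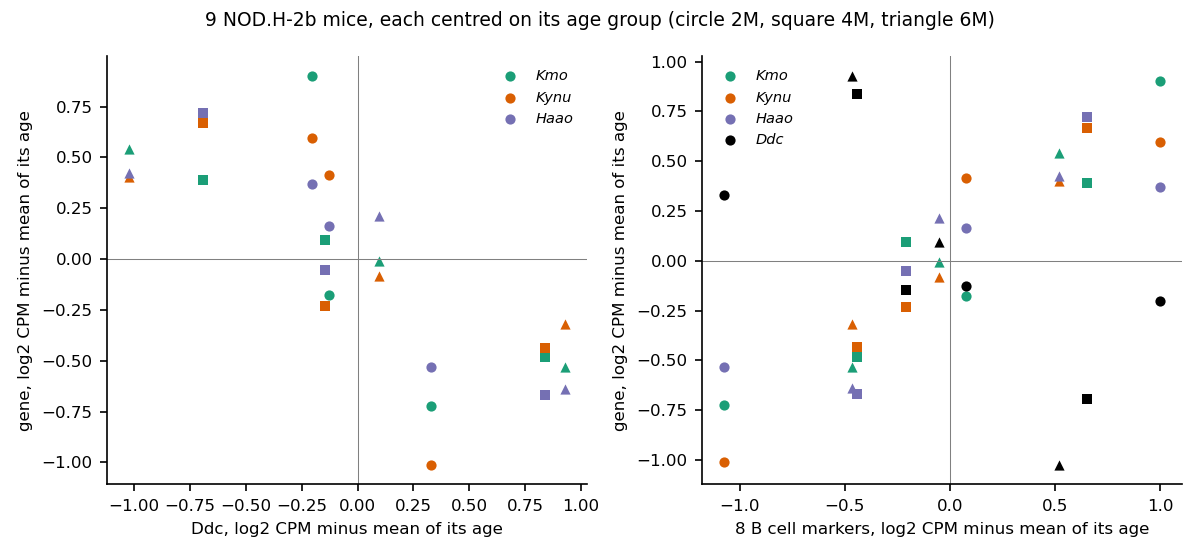
Log2 CPM of the enzymes in the 9 NOD.H-2b mice, each value minus the mean of its age group, plotted against Ddc (left) and against the mean of 8 B cell markers treated the same way (right), with 1 symbol shape per age. The mice highest in Ddc are lowest in Kmo, Kynu and Haao (r between -0.70 and -0.90), and these 3 enzymes rise with the B cell markers (r between 0.86 and 0.95) while Ddc falls (r = -0.71).

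The same centred values were compared with 7 marker lists, which gave 28 relations with Ddc, Kmo, Kynu and Haao. The lists were chosen after the enzyme values were seen, and the relations are not independent of each other. Kmo, Kynu and Haao ordered the mice of each age alike and Ddc in reverse. The relations of a list with these 4 genes thus largely restate a single order, and their p-values are a description and not separate tests. Mice were exchanged within ages in all 216 arrangements, the tests were two-sided, and the smallest p these can give is 0.0046. A single relation at this p could not fall under 0.05 after adjustment over the 28 relations. Adjusted values under 0.05 thus arise only because several relations that share an order have small p together. Nothing is read from which relations fall under 0.05. B cell markers rose with Kmo, Kynu and Haao (r = 0.95, 0.95 and 0.86, rho 0.92, 0.95 and 0.87) and fell with Ddc (r = -0.71, rho -0.83). The exact permutation p was 0.014, 0.0046, 0.0046 and 0.0093 for r in this order, and 0.049, 0.043, 0.043 and 0.043 after Benjamini-Hochberg adjustment over the 28 relations. For rho the exact permutation p was 0.014 for Kmo and Ddc and 0.0046 for Kynu and Haao, with 0.049 after adjustment in each case. Without the 2 mice farthest in the B cell markers, r was 0.90, 0.94, 0.94 and -0.93. Dendritic cell markers rose with Kynu and Haao (r = 0.93 and 0.90, exact permutation p = 0.0093 each, adjusted 0.043, rho 0.90 and 0.87, exact permutation p = 0.014 each, adjusted 0.049). Their r was 0.87 with Kmo and -0.71 with Ddc (adjusted permutation p = 0.071 each). T cell markers rose with Kynu and Haao as well (r = 0.92 and 0.85, exact permutation p = 0.014 and 0.0093, adjusted 0.049 and 0.043, rho 0.90 and 0.85, exact permutation p = 0.0093 each, adjusted 0.049). Their r was 0.88 with Kmo and -0.60 with Ddc (adjusted permutation p = 0.071 and 0.11). For acinar cell markers and Ddc, r was 0.77 (exact permutation p = 0.046, adjusted 0.11, rho 0.63, exact permutation p = 0.17). For macrophage markers, r was between -0.34 and 0.33 for the 4 genes, with exact permutation p from 0.26 to 0.88, and for ductal and myoepithelial markers the exact permutation p was between 0.28 and 0.79. Whether the makeup of the gland sets these relations was not tested.

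The genes around the enzymes were grouped into 10 lists of 113 genes, chosen with earlier results known. Of these genes, 67, 73 and 74 were tested between the strains at 2M, 4M and 6M, of which 15, 20 and 25 were called higher in NOD.H-2b and 2, 4 and 8 lower. The interferon gamma response, 1 of the 10 lists, held 9, 10 and 12 of those called higher and none called lower. Over all genes, 12.0%, 15.6% and 18.8% were called higher and 3.76%, 4.72% and 6.03% lower. The counts of each list below are to be set beside these shares, and nothing is read from a count near them. The median log2 difference over the lists was 0.13, 0.23 and 0.15, against 0.0099, 0.00034 and -0.0041 over all genes tested. These pooled counts and medians include the interferon gamma response and do not describe the lists of the tryptophan and amine routes alone.

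In the kynurenine route beyond the 10 genes, 0 of 10 tested genes were called higher and 1 lower at 2M, 1 of 11 higher and 2 lower at 4M, and 1 of 12 higher and 2 lower at 6M. Qprt, which takes quinolinic acid to NAD synthesis, was called higher at 4M (0.668 ± 0.300 against 0.112 ± 0.103 CPM, edgeR adjusted p = 0.0087). At 6M it had at most 1 count in BALB/c and 23 to 42 counts in NOD.H-2b, at least 10.0-fold higher against a limit of 3 counts per mouse. Naprt, which starts NAD synthesis from nicotinic acid, was called lower at each age, with log2 differences of -1.34 ± 0.12, -2.17 ± 0.14 and -1.92 ± 0.17 (SE, edgeR adjusted p = 5.2e-06, 4.0e-06 and 9.3e-06). Nmnat3, an NAD-forming adenylyltransferase, was called lower at 4M and 6M (-1.17 ± 0.14 and -1.33 ± 0.13, edgeR adjusted p = 0.00016 and 2.3e-05). The formamidase gene Afmid, the step between the dioxygenases and Kmo, had log2 differences of -0.33 ± 0.18, 0.42 ± 0.19 and -0.07 ± 0.26 and did not pass at any age.

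Of the cofactor genes, Gch1, the entry enzyme of tetrahydrobiopterin synthesis on which Tph1 and Th depend, was the only gene called of the 7 tested at 2M and the 8 tested at 4M and 6M, and it was higher at each age (1.73 ± 0.43, 1.66 ± 0.43 and 2.91 ± 0.25, edgeR adjusted p = 0.0094, 0.015 and 8.7e-06). Of the 4 vitamin B6 genes, none was called at 2M or 4M and Pdxp was called higher at 6M (1.56 ± 0.43, edgeR adjusted p = 0.012). Pdxk, which activates the vitamin that Ddc needs, had log2 differences of -0.52 ± 0.08, -0.51 ± 0.07 and -0.18 ± 0.07, below the 2-fold limit. Apart from Tph1 and Ddc, the list of serotonin, melatonin and catecholamine synthesis had 8 genes, of which 1 was tested at 2M and 4M and none at 6M, with no call. Th, Dbh and Pnmt had no count in any mouse, and Tph2 had at most 12 counts.

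Among amine transporters and breakdown enzymes, Aldh1b1, a mitochondrial aldehyde dehydrogenase, was higher at each age (3.65 ± 0.50, 2.30 ± 0.46 and 3.12 ± 0.53, edgeR adjusted p = 0.00015, 0.0028 and 0.00072). The noradrenaline transporter Slc6a2 was called lower at 4M and 6M (-1.84 ± 0.49 and -1.08 ± 0.38, edgeR adjusted p = 0.012 and 0.036). In this list 1 of 10 tested genes was called higher and none lower at 2M, 1 of 12 higher and 1 lower at 4M, and 2 of 12 higher and 3 lower at 6M. Of the other amino acid decarboxylases, Gad1, which makes GABA from glutamate, had at most 2 counts in any BALB/c mouse. It had 2 to 14 counts in NOD.H-2b at 2M, 35 to 121 at 4M and 177 to 426 at 6M, a difference of at least 20.6-fold at 4M and 74.0-fold or more at 6M. Hdc, the histamine-forming enzyme related to Ddc, had log2 differences of 1.33 ± 0.66, 0.32 ± 0.57 and 0.11 ± 0.45 and did not pass. In this list 0 of 4, 1 of 5 and 2 of 5 tested genes were called higher at 2M, 4M and 6M, and none lower.

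Il4i1, a secreted amino acid oxidase that also uses tryptophan, was higher at each age, with 27 to 44 counts in BALB/c and 153 to 371 in NOD.H-2b at 2M, and 18 to 53 counts and 615 to 1381 counts at 6M. Its log2 differences were 2.80 ± 0.32, 4.40 ± 0.32 and 4.74 ± 0.24 (edgeR adjusted p = 0.00013, 4.4e-05 and 5.0e-07). The amino acid transporter Slc43a2 was called higher at 4M and 6M (1.47 ± 0.26 and 1.97 ± 0.17, edgeR adjusted p = 0.0044 and 1.1e-05). Of the 10 tested genes of tryptophan transport and other use, 1, 2 and 2 were called higher at 2M, 4M and 6M, and 0, 0 and 2 lower.

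In the list of the aryl hydrocarbon receptor, its partner and targets, and the receptor Gpr35, 2 of 6, 3 of 7 and 3 of 7 tested genes were called higher at 2M, 4M and 6M and none lower. The genes called were Cyp1b1 and Gpr35, joined at 4M and 6M by Ahrr, the repressor of the aryl hydrocarbon receptor. Cyp1b1, a target of the aryl hydrocarbon receptor, was higher by 4.12 ± 0.34, 3.72 ± 0.40 and 5.56 ± 0.27 (edgeR adjusted p = 3.2e-06, 0.00017 and 3.3e-07). Gpr35, a receptor for which kynurenic acid is one proposed ligand, was higher by 4.02 ± 0.38, 3.72 ± 0.40 and 4.75 ± 0.31 (edgeR adjusted p = 1.1e-05, 0.00012 and 1.4e-06). Ahr itself differed by 0.34 ± 0.09, 0.38 ± 0.12 and 0.24 ± 0.10, below the 2-fold limit. Of its other targets, Nqo1 differed by 0.29 ± 0.34, 0.03 ± 0.44 and -0.09 ± 0.36 and Tiparp by -0.14 ± 0.14, 0.11 ± 0.13 and 0.44 ± 0.13, with no call, and Cyp1a1 had at most 3 counts. Of the serotonin and dopamine receptors, 2 of 19 genes were tested at each age. Htr1b was called higher in NOD.H-2b, at least 5.51-fold at 2M, 9.82-fold or more at 4M, and by 2.21 ± 0.61 at 6M (edgeR adjusted p = 0.012). Htr5b had 602 to 1448 counts in the BALB/c mice and 0 to 5 in the NOD.H-2b mice. Against a limit of 3 counts per mouse, this was at least 281-fold lower at 2M and 316-fold or more at 6M. At 4M, where NOD.H-2b had 0 to 5 counts, the fitted log2 difference of Htr5b was -8.93 ± 0.48 (SE).

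**Figure D4:**
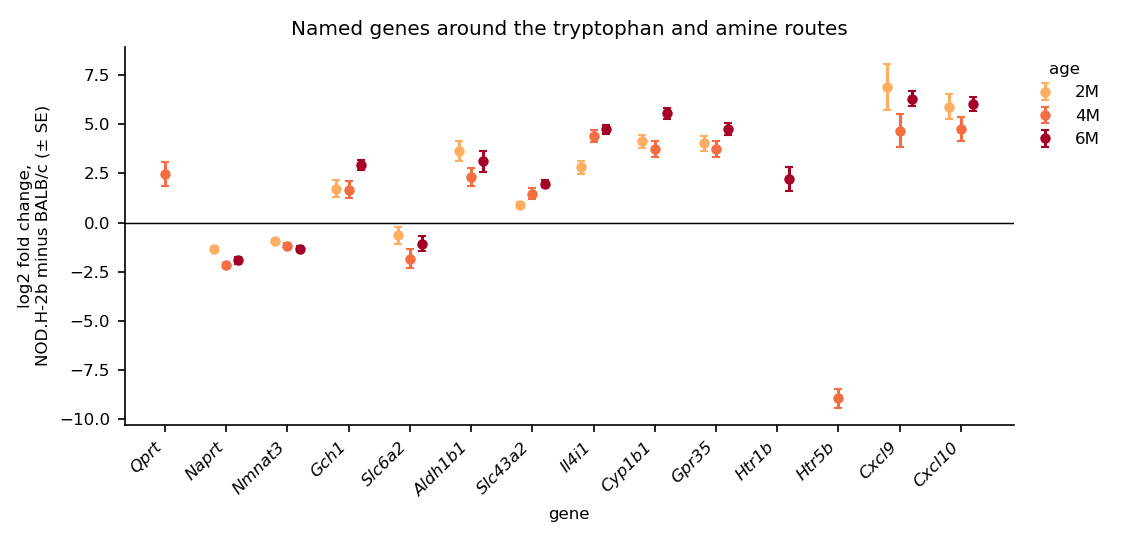
Log2 fold change between the strains (NOD.H-2b minus BALB/c) of genes named from the lists around the enzymes, at 2M, 4M and 6M, with bars of ± 1 SE from edgeR. Gad1 and other values with a group at 3 counts or less in each mouse are left out. Naprt, Nmnat3 and Slc6a2 lie below 0, as does Htr5b, shown at 4M only (-8.93). Il4i1, Cyp1b1 and Gpr35 lie between 2.80 and 5.56.

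In the interferon gamma response, 9 of 13 tested genes were called higher at 2M, 10 of 13 at 4M and 12 of 14 at 6M, and none lower. Over all genes, 12.0%, 15.6% and 18.8% were called higher at these ages. The median log2 difference was 2.19, 2.73 and 3.59. Cxcl9, a chemokine induced by interferon gamma, had 2 to 4 counts in BALB/c and 111 to 765 in NOD.H-2b at 2M, and 7 to 27 counts and 648 to 1712 counts at 6M. Cxcl10 was higher by 5.90 ± 0.62, 4.77 ± 0.62 and 6.03 ± 0.34 (edgeR adjusted p = 0.00027, 0.0015 and 7.7e-07). Ifng had at most 1 count in any BALB/c mouse and 10 to 28 counts in the NOD.H-2b mice of 6M. Ido1, known as a target of the same cytokine, had 2, 2 and 1 counts in those mice. At such counts neither a change nor its absence can be read.

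The genes whose profile over the 18 mice was most like that of Ddc were sought among 13265 genes, by the same root mean square difference of centred log2 CPM. They were A530032D15Rik (0.75), Epsti1 (0.78), the B cell chemoattractant Cxcl13 (0.79), the costimulatory receptor Cd40 (0.80) and Trim30d (0.83). A530032D15Rik and Trim30d belong to families of near-identical genes, so their counts are uncertain. For comparison, Ddc was 0.93 from Kynu, 1.00 from Haao and 1.02 from Kmo, whereas Kmo, Kynu and Haao were 0.43 to 0.47 from each other. All these profiles carry the strain difference. No such search was made for Ido1, given its counts.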

How the data were processed

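RNA-seq of whole LGs of 18 mice was analyzed. The authors depleted ribosomal RNA, used cutadapt to trim paired-end reads, STAR to align them to GRCm38 and HTSeq to count them over Ensembl genes, and deposited these raw counts without normalization. The annotation release, strand setting and handling of reads with several matches are not given in the sources used here. A deposited table of log2 normalized values was not used. Groups came from the labels. The enzymes, gene lists and marker lists were chosen with earlier results of these data known.

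Tests used R 4.3.3 with edgeR 4.0.16 (TMM, filterByExpr, robust quasi-likelihood test, Benjamini-Hochberg adjustment over all genes tested) on the 6 mice concerned, or on all 18 mice for the strain by age test. DEGs had an adjusted p under 0.05 and at least a 2-fold change. SEs were derived from each log2 fold change and its F statistic. A gene at 3 counts or fewer in each mouse of a group was taken as not detectable, and folds against it use 3 counts per mouse. Exon lengths are unions of GENCODE M21 exons. For correlations, log2(CPM + 0.1) was used for genes and a pseudocount of 1 for marker lists. The fitting step was tested on simulated data. One further motif is not reported here.

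Named are the 10 enzymes, from each list up to 2 genes each way with the largest mean strain difference among genes called at 2 or more ages, the 5 genes most like Ddc, and marker genes. Afmid, Pdxk, Pdxp, Ahr, Cyp1a1, Ahrr, Nqo1, Tiparp, Hdc, Ifng, Th, Dbh, Pnmt and Tph2 were named in addition, for their place in the routes and with their values seen. Alternatives were DESeq2 1.42.0, DESeq2 size factors, no filter, at least 10 counts in every sample, a replicate block, 1 fit of 18 mice, 12 mice of 2M and 6M only, and leaving out each mouse. Replicates spread more than counting error alone gives (chi-square 16.4 to 83.4 per gene and pair).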

Additional observations from a re-analysis of the deposited data

Results flagged for a closer look

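The strain difference changed from 2M to 6M, by the strain by age test in 1 edgeR fit of 18 mice, for 1 of the 7 enzymes tested and for 4 of the 15 genes named around them, which had been named for a large strain difference. Of all 19117 genes tested, 5.11% were called. For Haao the log2 difference between NOD.H-2b and BALB/c grew by 3.34 (edgeR adjusted p = 0.033), from 2.87 at 2M to 6.21 at 6M. BALB/c had 2, 6 and 2 counts at 2M and 5, 1 and 3 at 6M, so Haao passed the filter on low counts through NOD.H-2b, and the call was lost when any of 5 mice was left out. For Qprt, which acts on quinolinic acid after Haao, it grew by 3.97 (edgeR adjusted p = 0.028), where BALB/c had at most 1 count at 6M and was thus not detectable. For Il4i1 it grew by 1.95 (edgeR adjusted p = 0.020) and for Slc43a2 by 1.10 (edgeR adjusted p = 0.034). For Gad1 it grew by 4.96 (edgeR adjusted p = 0.046), where BALB/c had at most 2 counts. The sizes and p-values of Qprt and Gad1 rest on the prior count of the fit and on a filter passed through NOD.H-2b, and are no measure of how much the difference grew. Groups of 3 mice are too small for a search for single outlying mice.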

How the results depend on the processing

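No result changed direction past its threshold under any alternative tried. The counts of genes of the 10 lists called between the strains (17, 24 and 33 at 2M, 4M and 6M) fell to 9, 13 and 17 with at least 10 counts in every sample, where fewer genes were tested. Without a filter, 1 enzyme in place of 0 was called in BALB/c between 2M and 6M, and 1 in place of 2 in NOD.H-2b between 2M and 4M. That last count was 4 with DESeq2, 4 in 1 fit of all 18 mice, and between 0 and 3 when single mice were left out, with 0 without NOD.H-2b 2M replicate 3. From 2M to 6M in NOD.H-2b, 5 in place of 3 enzymes were called in 1 fit of all 18 mice. For strain by age, 0 in place of 1 were called with at least 10 counts, 2 with DESeq2, 2 with 12 mice only, and 0 to 3 when single mice were left out (3 without NOD.H-2b 2M replicate 2). The causes of these changes were not tested. Replicate numbers were not taken to pair the mice, since same-numbered mice had correlations of deviations between -0.30 and 0.30. With the number as a block, 0 enzymes were called from 2M to 4M (edgeR adjusted p = 0.081 for Ddc and 0.072 for Haao) and 1 from 2M to 6M in NOD.H-2b (edgeR adjusted p = 0.065 for Ddc and 0.057 for Kynu). In BALB/c from 2M to 6M, 3 of 3 numbers correlated best with themselves. Depth limits Ido1, Ido2 and Tph1 in all groups and the BALB/c levels of Ddc and Haao.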
